A study of Homo sapiens with 40 samples.

Results

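Small interfering RNA (siRNA) knockdown of IGF2BP3 was described in 8 of the 40 RNA sequencing libraries of the series, 4 from cells transfected with a pool of siRNAs against IGF2BP3 (siIGF2BP3) and 4 from cells transfected with a non-targeting siRNA (siControl). The libraries were chosen by their labels alone, as the siIGF2BP3 and siControl libraries of the line that carries guides against IGF2BP3. All 8 come from RKO, an established human colorectal carcinoma line, engineered with a doxycycline-inducible Cas9 nuclease, GFP, and 2 lentiviral guide RNAs against IGF2BP3 with BFP (sgIGF2BP3 cells, sorted as BFP-positive cells). The siRNA groups received no doxycycline, so Cas9 was not induced in them. siRNAs were used at 75 nM for 48 hours, and all cells were given the nucleoside 4-thiouridine (s4U) at 250 µM for 2 hours, a label used in SLAMseq to mark newly made RNA. Reads with and without label were not separated here: every value below is the total poly(A) RNA of a gene. Replicates were separate wells of a plate, so p-values measure the spread between wells.

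For comparison, 16 further libraries in groups of 4 were set beside these. In the same sgIGF2BP3 line, cells with Cas9 induced by doxycycline (Dox, 250 ng/mL for 72 hours) were compared with cells given the solvent DMSO. In a second RKO line with the same inducible Cas9 but guides against IGF2BP2 (sgIGF2BP2 cells), a pool of siRNAs against IGF2BP2 (siIGF2BP2) was compared with the same non-targeting siRNA. None of these 16 libraries is shared with the siIGF2BP3 comparison.

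IGF2BP3 belongs to a family of RNA-binding proteins with IGF2BP1 and IGF2BP2, which bind many mRNAs, often in the 3′ untranslated region (3′ UTR), and can change their stability, localization or translation. IGF2BP3 is an oncofetal protein: it is abundant in the embryo, low in most adult tissues and found again in many tumours. An siRNA pool lowers a target by guiding Argonaute proteins to its mRNA, which is then cleaved, and a guide strand can also lower other mRNAs that pair with its seed. The study's title places IGF2BP3 in RNA metabolism during the unfolded protein response, by which a cell answers an excess of misfolded proteins in its endoplasmic reticulum.

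The target gene IGF2BP3 (ENSG00000136231) spans bases 23310209 to 23470467 of chromosome 7 in GRCh38 and is read from the minus strand. The 2 guides are shown because they define the cell line in which the siRNAs were used and the knockout that is set beside the knockdown. They are written 5′ to 3′ with the adjacent NGG motif (PAM), found in the GENCODE transcripts, in capitals.
IGF2BP3 guide 1: tggcaccgactgatagagctGGG
IGF2BP3 guide 2: gaagatactttctaggtccgAGG
Guide 1 matches the coding sequence in exon 11 of 15 (chromosome 7, 23319200 to 23319219). Guide 2 matches the coding sequence in exon 1 (chromosome 7, 23470045 to 23470064). Both are antisense to the transcript, and neither had an exact match in another gene's transcripts. The siRNA sequences were not used here.

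Total counts were 1.02e+07 to 1.65e+07 in the siControl libraries and 1.22e+07 to 1.69e+07 in the siIGF2BP3 libraries. After a filter on low counts, 11428 genes were tested. Levels are given as CPM, the counts of a gene per 1000000 counts of its library after TMM scaling of library sizes, and a gene is called when its adjusted p from edgeR's quasi-likelihood test is under 0.05. The first principal component of the 8 libraries, 20.7% of their variance, placed all siControl libraries (-14.8 to -3.68) on one side and all siIGF2BP3 libraries (5.33 to 10.0) on the other, with siControl replicate 1 farthest out. Of 15 epithelial and colonic markers, 4 (KRT18, KRT8, CDX2 and EPCAM) had at least 10 counts in every library. Their list summed to 248 to 263 CPM in siControl and 255 to 271 CPM in siIGF2BP3 libraries. CDX1, CEACAM5, KRT20 and MUC2 had no count, and CDH1 had at most 1. The 11 mesenchymal and fibroblast markers summed to 221 to 234 and 221 to 243 CPM, with 7 at 0 and nearly all of the signal from ZEB1 and VIM. The 10 blood and endothelial markers summed to 1.67 to 3.62 and 1.90 to 2.22 CPM, with 4 at 0.

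The targeted mRNA fell to 14.6% of its control level. IGF2BP3 was at 168, 173, 164 and 174 CPM in siControl replicates 1 to 4 and at 25, 24.9, 26.4 and 22.6 CPM in siIGF2BP3 replicates 1 to 4. The groups lay far apart, and each siIGF2BP3 library held between 13.3% and 15.6% of the siControl mean. The difference was -2.78 on the log2 scale (SE 0.051, adjusted p = 6.37e-53, edgeR quasi-likelihood test with Benjamini-Hochberg adjustment), from 170 ± 4.78 to 24.7 ± 1.56 CPM (SD, n = 4 each).

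No change was detected in the paralogs. IGF2BP2 was at 115 ± 3.15 CPM with siControl and 114 ± 5.10 CPM with siIGF2BP3 (SD, n = 4 each), a log2 difference of -0.0038 (SE 0.043, adjusted p = 0.983, edgeR). IGF2BP1 had no count in any of the 8 libraries. MALSU1, a mitochondrial ribosome assembly factor whose exons share bases with IGF2BP3 on the opposite strand, was at 34.9 and 34.7 CPM.

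**Figure D1:**
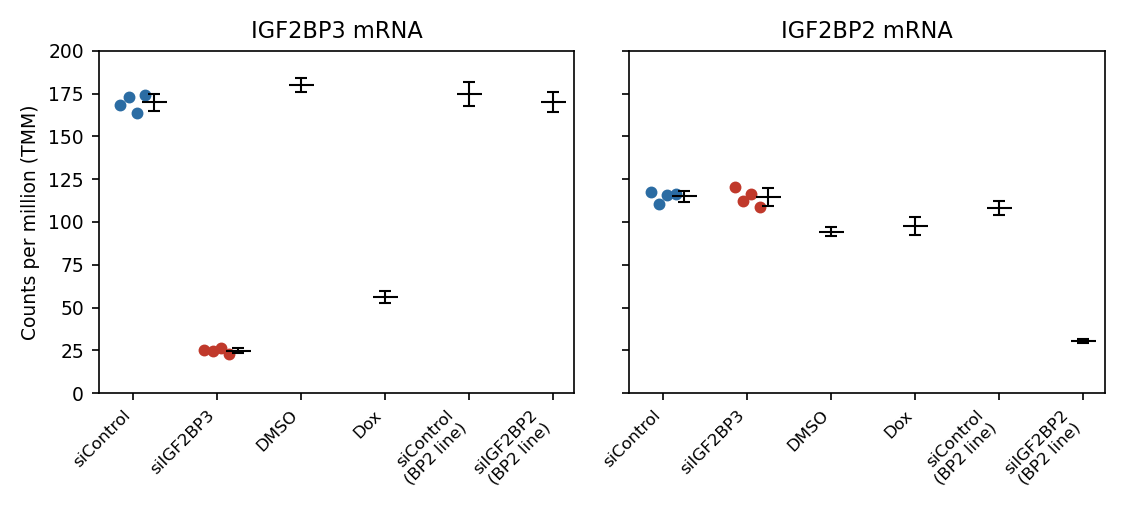
IGF2BP3 (left) and IGF2BP2 (right) in CPM on a linear axis. Points are the 4 siControl and 4 siIGF2BP3 libraries of sgIGF2BP3 cells, and black bars with whiskers are the mean and SD of 4 libraries in each of 6 groups ("BP2 line": sgIGF2BP2 cells). IGF2BP3 sits near 170 CPM with siControl and near 24.7 CPM with siIGF2BP3, while IGF2BP2 is near 115 CPM in both.

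Across all genes, siIGF2BP3 changed 267 of the 11428 genes tested (2.34%), of which 107 rose (0.936%) and 160 fell (1.40%). The rises numbered 66 without siControl replicate 1 and 65 without siControl replicate 3. With the 8 libraries fitted alone, 196 rose and 269 fell, and with an offset for GC content and transcript length, 150 rose and 328 fell. Most changes were small: the median size was 0.23 on the log2 scale for the genes that rose and also 0.23 for those that fell. Of the genes that rose, 61 changed by less than 1.2-fold, as did 108 of those that fell. A change of at least 1.5-fold was found for 3 genes that rose and 13 that fell. At least 2-fold changes were limited to 4 falls, IGF2BP3, CA2, RAB6A and PM20D2, and 1 rise, CKMT1B, a mitochondrial creatine kinase (named after its values were seen). CKMT1B was low, at 0.675 to 1.44 CPM in siControl and 1.47 to 2.30 CPM in siIGF2BP3 libraries (log2 difference 1.03, SE 0.267, adjusted p = 0.0175, edgeR). It has a near-identical copy, CKMT1A, between which the authors' counting could split reads, and its call was lost without siIGF2BP3 replicate 3 or siControl replicate 1, 2 or 3. Among called genes the 4 and 4 libraries did not overlap in 98 of 107 rises and 153 of 160 falls, where the groups do not overlap in 9.96% of all tested genes (4.56% higher and 5.40% lower). The calls and the overlap draw on the same values, so nothing is read from these counts. Tested against a change of at least 1.2-fold instead of any change, 16 genes remained called, 1 higher (PSKH1) and 15 lower, among them all of the 12 largest falls described next except NECTIN3.

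**Figure D2:**
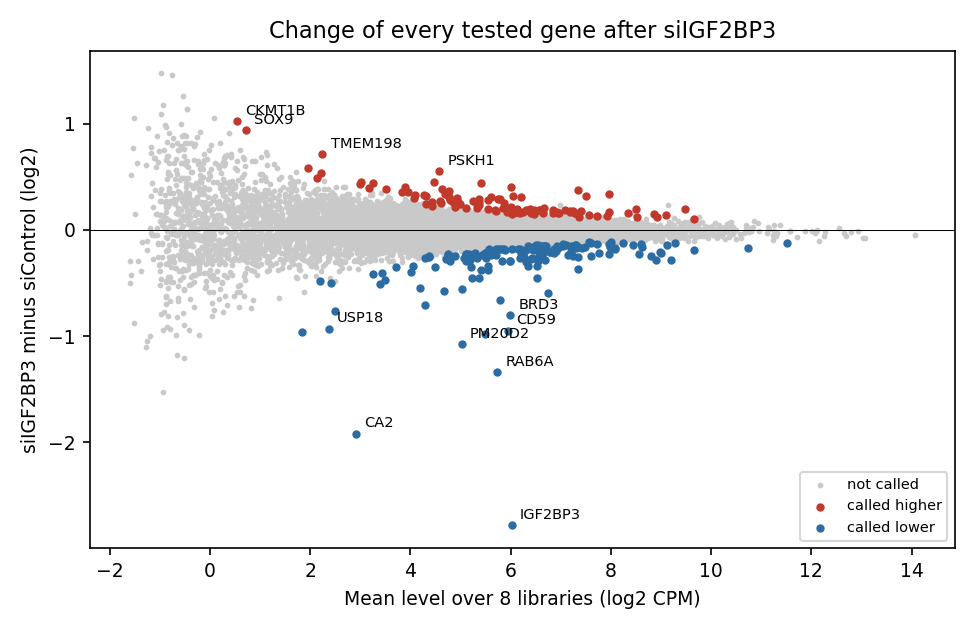
Log2 difference between siIGF2BP3 and siControl (y axis) against the mean level of each tested gene over the 8 libraries (x axis, log2 CPM). Grey points are genes not called, red points the 107 called higher and blue points the 160 called lower; IGF2BP3, CA2, RAB6A and PM20D2 stand apart at the bottom.

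The 12 largest falls among genes with a mean of at least 2 log2 CPM and no overlap between groups were, after IGF2BP3, those of 11 genes with varied roles, from -1.92 to -0.59 on the log2 scale. CA2, a cytosolic carbonic anhydrase that interconverts carbon dioxide and bicarbonate, was at 15.4, 13.5, 13.8 and 15.1 CPM with siControl and at 3.49, 3.76, 3.53 and 4.43 CPM with siIGF2BP3. Every siIGF2BP3 library was well below the lowest control. The mean fell to 26.3% (log2 difference -1.92, SE 0.107, adjusted p = 1.11e-23, edgeR quasi-likelihood). No other member of a list of 15 carbonic anhydrases, 6 of which were tested, was called, and the next lowest was CA12 at -0.21 (adjusted p = 0.27, edgeR). Of all genes tested, 2.34% were called.

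RAB6A, a small GTPase of Golgi trafficking, was at 80.0, 85.6, 80.9 and 91.7 CPM with siControl and at 37.0, 31.4, 30.9 and 34.3 CPM with siIGF2BP3. The level fell to 39.5% (log2 difference -1.34, SE 0.050, adjusted p = 1.53e-33, edgeR). Of the 38 genes of a RAB6 and Golgi trafficking list, 33 were tested and RAB6A alone was called, beside 2.34% of all genes tested. The list's median difference was 0.0007 against 0.0015 for all genes tested. RAB6B had no count, and the near-identical copies RAB6C and RAB6D had at most 1 and 3 counts per library, so reads that match several copies may have been dropped.

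PM20D2, an enzyme of dipeptide hydrolysis, was at 47.8, 49.2, 40.7 and 49.8 CPM with siControl and at 21.6, 22.5, 24.9 and 20.5 CPM with siIGF2BP3, a difference of -1.07 on the log2 scale (SE 0.073, adjusted p = 2.53e-19, edgeR). MAT2B, the regulatory subunit of methionine adenosyltransferase 2, which makes S-adenosylmethionine, was at 63.2, 61.5, 65.0 and 61.7 CPM against 33.3, 32.6, 28.6 and 32.3 CPM. Its difference was -0.98 (SE 0.053, adjusted p = 3.16e-24, edgeR). In both genes the groups were separate by a wide margin, and the siIGF2BP3 mean was 47.8% and 50.4% of the siControl mean.

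CD59, a membrane protein that blocks the complement membrane attack complex, was at 84.2, 85.4, 89.1 and 82.9 CPM with siControl and at 46.5, 44.9, 38.8 and 46.4 CPM with siIGF2BP3 (log2 difference -0.95, SE 0.046, adjusted p = 9.38e-27, edgeR). Of 9 complement regulators, 5 were tested: CD59 fell, and CLU, a secreted chaperone, rose by 0.21 (adjusted p = 0.00614, edgeR). Of all genes tested, 2.34% were called. CLU was also called higher after siIGF2BP2, by 0.21. CD46 and CD55, the other membrane inhibitors tested, were both at -0.16 and not called. The list is small, and its median was -0.16.

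BRD3, a bromodomain protein that reads acetylated histones, was at 86.0, 87.1, 83.3 and 80.1 CPM with siControl and at 49.4, 47.7, 46.2 and 49.8 CPM with siIGF2BP3 (log2 difference -0.80, SE 0.049, adjusted p = 1.24e-21, edgeR). ADPGK, an ADP-dependent glucokinase, fell from 69.3 to 43.8 CPM (-0.66, SE 0.049). ENTPD7, a nucleoside triphosphate diphosphohydrolase, fell from 131 to 87.5 CPM (-0.59, SE 0.046). The lowest siControl library was above the highest siIGF2BP3 library in each of these genes, as the rule required.

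The other 3 falls were those of STARD4, USP18 and NECTIN3. STARD4, a sterol transfer protein, was at 26.3, 23.6, 24.9 and 24.6 CPM with siControl and at 14.5, 14.8, 15.1 and 16.4 CPM with siIGF2BP3 (log2 difference -0.70, SE 0.074, adjusted p = 5.39e-11, edgeR). USP18, a protease that removes ISG15 and restrains interferon signalling, ranged from 5.57 to 8.80 CPM with siControl and from 2.54 to 4.72 CPM with siIGF2BP3 (-0.93, SE 0.146, adjusted p = 6.20e-06, edgeR). NECTIN3, a cell adhesion molecule, ranged from 6.16 to 8.07 CPM and from 3.70 to 5.56 CPM (-0.77, SE 0.162, adjusted p = 0.00169, edgeR). The spread within a group, relative to its mean, was widest for USP18 and NECTIN3, and siIGF2BP3 replicate 1 stood apart from the other replicates for NECTIN3.

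**Figure D3:**
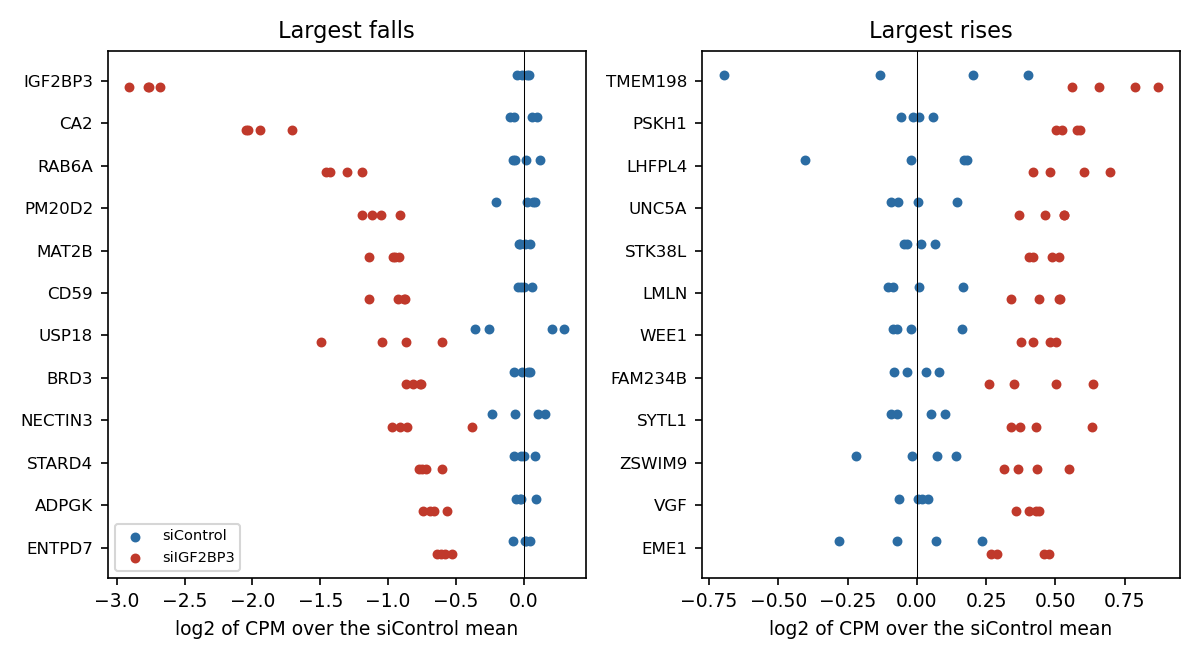
Each library's level relative to the siControl mean of that gene (log2, x axis) for the 12 largest falls (left) and the 12 largest rises (right) named by rule; the x axes differ in range. Blue points are the 4 siControl and red points the 4 siIGF2BP3 libraries, which do not overlap in any of these genes because the rule required it.

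The 12 largest rises under the same rule were smaller, from 0.40 to 0.72 on the log2 scale. PSKH1, a serine kinase, was at 19.6, 18.8, 20.3 and 19.3 CPM with siControl and at 29.1, 27.7, 29.4 and 28.1 CPM with siIGF2BP3 (log2 difference 0.55, SE 0.070, adjusted p = 3.21e-08, edgeR quasi-likelihood). WEE1, the kinase that holds CDK1 inactive before mitosis, was at 34.7, 35.9, 34.3 and 40.8 CPM against 50.9, 51.6, 48.7 and 47.3 CPM (0.45, SE 0.059, adjusted p = 8.80e-08, edgeR). VGF, a secreted neuropeptide precursor, was at 53, 57, 55.6 and 56.1 CPM against 75.3, 71.0, 73.4 and 74.6 CPM (0.40, SE 0.051, adjusted p = 2.21e-08, edgeR). STK38L, a kinase of the NDR family, rose from 18.9 to 25.9 CPM (0.45, SE 0.079, adjusted p = 4.89e-05, edgeR). These 4 kept their call in every alternative fit except the test against a 1.2-fold change, in which PSKH1 alone of the 4 kept it.

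The other 8 rises were at low levels, with group means of at most 16.9 CPM. TMEM198 ranged from 2.25 to 4.81 CPM with siControl and from 5.37 to 6.66 CPM with siIGF2BP3 (log2 difference 0.72, SE 0.158, adjusted p = 0.00291, edgeR), and its call was lost without siControl replicate 4. LHFPL4 (0.54), UNC5A, a netrin receptor (0.49), LMLN, a metallopeptidase (0.45), FAM234B (0.44), SYTL1 (0.43), ZSWIM9 (0.40) and EME1, a partner of the MUS81 endonuclease (0.40), were called with adjusted p between 0.0109 (LMLN) and 0.0469 (UNC5A). The UNC5A call was lost when any 1 of the 8 libraries was left out. That of LHFPL4 was lost without any 1 library except siIGF2BP3 replicate 3 or siControl replicate 2. EME1 lost its call without siIGF2BP3 replicate 1 or 3 or siControl replicate 2 or 3, SYTL1 without siIGF2BP3 replicate 3 or siControl replicate 1 or 4, FAM234B without siIGF2BP3 replicate 1 or siControl replicate 1 or 4, ZSWIM9 without siIGF2BP3 replicate 3 or siControl replicate 3, and LMLN without siControl replicate 3 or 4.

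The same genes were then read in cells in which IGF2BP3 was lowered by Cas9. IGF2BP3 mRNA was at 180 ± 4.09 CPM with DMSO and 56.2 ± 3.62 CPM with Dox (SD, n = 4 each), or 31.2% of the DMSO level, against 14.6% after siRNA. The difference between the siRNA effect and the Dox effect was -1.10 on the log2 scale for IGF2BP3 (SE 0.070, adjusted p = 2.76e-20, edgeR). The 2 treatments also differ in duration, in transfection, and in doxycycline and Cas9 cutting, which only the Dox cells had. Dox cells with control guides were not compared here, so effects of doxycycline or cutting itself are not separated. Cutting can leave mRNA that encodes no intact protein, so these mRNA levels are no measure of the protein, which was not analysed here.

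None of the 11 largest falls beside IGF2BP3 was called with Dox. Of all genes tested, 2.64% were called with Dox and 1.01% were called lower, so this count alone says little. CA2 was at 18.8 ± 2.46 CPM with DMSO and 18.5 ± 1.40 CPM with Dox (SD, n = 4 each; log2 difference -0.03, SE 0.077). RAB6A was at 86.8 and 84.3 CPM (-0.04, SE 0.044), and CD59 at 85.6 and 85.7 CPM. In these genes the Dox value lay within its error of 0, while siRNA lowered them by 0.95 to 1.92 on the log2 scale.

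The difference between the effects was itself called for 9 of the 11, and for 155 of all 11428 genes tested (1.36%). The siRNA effect that chose these genes is one term of this difference, so nothing is read from that count. It was -1.89 for CA2 (SE 0.134, adjusted p = 2.99e-18), -1.30 for RAB6A (SE 0.067, adjusted p = 6.40e-25) and -1.03 for PM20D2 (SE 0.099, adjusted p = 2.22e-12, all edgeR). It was not called for USP18 (-0.62, adjusted p = 0.114) or NECTIN3 (-0.77, adjusted p = 0.0604, edgeR). STARD4 was at 22.1 CPM with DMSO and 18.9 CPM with Dox (log2 difference -0.23, adjusted p = 0.0761, edgeR), and the difference from siRNA was -0.48 (adjusted p = 0.00450, edgeR). ENTPD7 was at 95.6 CPM with DMSO and 131 CPM with siControl, and its siIGF2BP3 level of 87.5 CPM was below both.

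Of the 155 genes whose siRNA and Dox effects differed, 54 had the higher value after siRNA (0.473% of all genes tested) and 101 the lower (0.884%). With the GC and length offset the split was 114 and 138. The 54 became 29 without siControl replicate 2, 35 without siControl replicate 3 and 33 without Dox replicate 4. The 4 highest differences by rule were ZNF704 (0.59), STK38L (0.58), GALM, an aldose mutarotase (0.51), and PSKH1 (0.50). The ZNF704 difference was lost with a replicate block and without siIGF2BP3 replicate 4, siControl replicate 2, Dox replicate 3 or 4, or DMSO replicate 4. That of GALM was lost without siIGF2BP3 replicate 2, siControl replicate 3, Dox replicate 1, 3 or 4, or DMSO replicate 1.

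Genes changed by both treatments were few. Dox changed 302 genes (2.64%), of which 187 rose (1.64%) and 115 fell (1.01%), and 22 were called in both comparisons, 8.24% of the siRNA calls and 7.28% of the Dox calls. Of these, 17 had the same direction, 9 higher and 8 lower. The 6 with the largest shared change were IGF2BP3 and 5 rises. CALD1, the actin-binding protein caldesmon, rose by 0.31 after siRNA and 0.54 with Dox. C6orf141 rose by 0.30 and 0.35, NES, the intermediate filament nestin, by 0.29 and 0.26, and RPS27L, a p53-induced ribosomal protein paralog, by 0.23 and 0.25. After siIGF2BP2, CALD1 rose by 0.70, RPS27L by 0.28 and C6orf141 by 0.15, all called. NES was at -0.01 there and not called.

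IER5L, an immediate early response gene, rose after both treatments but by different amounts. It was at 32.7, 34.3, 36.1 and 43.4 CPM with siControl and at 45.5, 41.7, 43.5 and 44.2 CPM with siIGF2BP3, where the groups overlapped (log2 difference 0.25, SE 0.067, adjusted p = 0.0202, edgeR). With Dox it went from 37.4 to 79.3 CPM (1.08, SE 0.062), and the difference between the effects was -0.83 (adjusted p = 3.28e-10, edgeR). After siIGF2BP2, IER5L was at -0.07 and not called. Its siRNA call was lost without siIGF2BP3 replicate 1 or 4 or siControl replicate 1, 2 or 3, and with the GC and length offset. The RPS27L call after siRNA was lost without siIGF2BP3 replicate 2 or siControl replicate 1 or 3.

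The other 11 genes called in the same direction included, named after their values were seen, the falls of UBE2V2, PAQR3, RAB3IP, UBE2G1, ERO1A and BZW2, which lies between the end of 7p and IGF2BP3, and the rises of HEXIM1, CAVIN1, MDM2 and SPOCD1. The siRNA changes of these 10 were between -0.23 and 0.20 on the log2 scale. After siIGF2BP2, ERO1A (-0.73), RAB3IP (-0.30), UBE2G1 (-0.25), UBE2V2 (-0.22), BZW2 (-0.14) and SPOCD1 (0.37) were called in the same direction. CAVIN1 (-0.27) was called in the other direction there, and PAQR3, HEXIM1 and MDM2 were not called. The siRNA call was lost for UBE2V2 without siControl replicate 4, for PAQR3 without siIGF2BP3 replicate 1 or 2 or siControl replicate 1, 3 or 4, for UBE2G1 without any 1 library except siIGF2BP3 replicate 1 or siControl replicate 2, for HEXIM1 without siIGF2BP3 replicate 3 or 4 or siControl replicate 1, 2 or 3, and for SPOCD1 without siIGF2BP3 replicate 3 or 4 or siControl replicate 1, 3 or 4. CAVIN1, a coat protein of caveolae, was at 228, 243, 242 and 232 CPM with siControl and 254, 258, 276 and 273 CPM with siIGF2BP3, with no overlap. Its log2 difference was 0.17 after siRNA and 0.20 with Dox. In contrast to these, 5 genes moved in opposite directions, of which 4 are named here, after their values were seen. IL11, a cytokine, PIP5KL1 and ITGAX fell after siRNA and rose with Dox, and RRM2, a ribonucleotide reductase subunit, rose after siRNA and fell with Dox.

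Over all 107 genes that rose after siRNA, the median Dox value was 0.035 on the log2 scale and 63 were above 0. Over the 159 that fell, IGF2BP3 left out, it was -0.026 and 108 were below 0. The median over all genes tested was 0.0027. Dox lowered 20 of 80 tested genes between the end of 7p and IGF2BP3 (median -0.15), beside 1.01% of all genes tested. The siRNA pool lowered 1 of the 80, BZW2 (median -0.014), beside 1.40% of all genes tested.

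**Figure D4:**
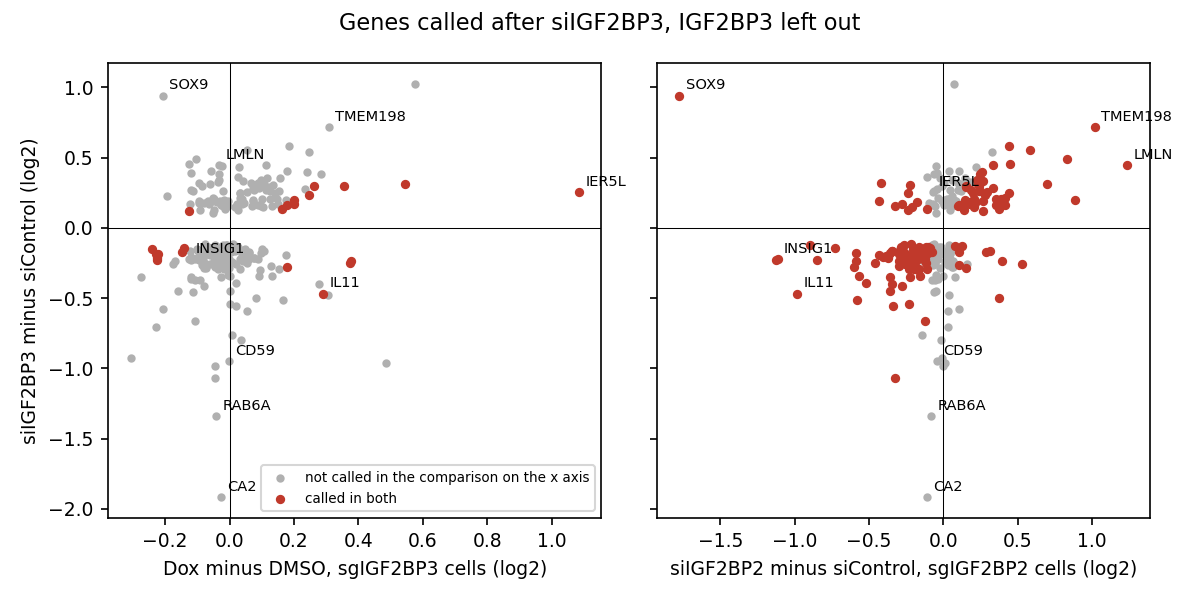
Log2 difference after siIGF2BP3 (y axis) for the 266 called genes other than IGF2BP3, against their log2 difference with Dox in sgIGF2BP3 cells (left) and after siIGF2BP2 in sgIGF2BP2 cells (right); the x axes differ in range. Red points are called in both comparisons and grey points are not; CA2, RAB6A and CD59 lie near 0 on both x axes.

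The siRNA pool against IGF2BP2 served as a second pool at the same dose and time. It lowered IGF2BP2 to 27.9% and left IGF2BP3 at 170 ± 5.68 CPM against 175 ± 7.0 CPM (SD, n = 4 each). It changed many more genes, 4202 of 11428 (36.8%), 2101 in each direction (18.4% each). Of the 267 siIGF2BP3 calls, 146 were also called there, 54.7% of the siIGF2BP3 calls and 3.47% of the siIGF2BP2 calls. Of the 146, 125 had the same direction, 48 of the 107 rises and 77 of the 160 falls.

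Of the 12 largest rises, 7 (TMEM198, PSKH1, UNC5A, STK38L, LMLN, WEE1 and EME1) also rose after siIGF2BP2. PSKH1 was at 19.9 CPM with siControl and 29.7 CPM with siIGF2BP2, a difference of 0.58, and STK38L rose by 0.45 there, as after siIGF2BP3. Of the 11 falls, 2 also fell: PM20D2 by 0.33 (adjusted p = 5.80e-05, edgeR) and ADPGK by 0.12 (adjusted p = 0.0376, edgeR). The difference between the effects of the 2 pools was called for all 11 of these falls and for 2 of the 12 rises, and for 18.7% of all genes tested (9.88% higher and 8.82% lower after siIGF2BP3). Since the siIGF2BP3 effect chose the genes and enters the difference, nothing is read from these counts.

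Differences between the pools were ranked among called genes with a mean of at least 2 log2 CPM and no overlap between siIGF2BP3 and siControl. Outside these limits were IGF2BP2 (1.84), whose siIGF2BP3 and siControl groups overlapped, and SOX9 (2.72), whose level was too low. Within them, the lowest differences were those of IGF2BP3 (-2.74), CA2 (-1.81), RAB6A (-1.26) and MAT2B (-0.98). The highest were those of SERPINB9, a granzyme B inhibitor (1.18), NT5E, the ecto-5′-nucleotidase CD73 (1.11), SRPX (1.06) and RALA, a small GTPase (1.03). None of these last 4 was called after siIGF2BP3, where they ranged from -0.16 to 0.33. They were lower by 0.78 to 1.22 on the log2 scale after siIGF2BP2, all called.

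Pathway lists were read by counts of members called, where 0.936% of all tested genes were called higher and 1.40% lower. In the unfolded protein response list, 1 of 34 tested genes was called, EDEM1, which helps send misfolded glycoproteins to degradation. EDEM1 was at 83.7, 78.7, 86.5 and 81.2 CPM with siControl and 70.5, 69.1, 67.6 and 72.0 CPM with siIGF2BP3 (log2 difference -0.24, SE 0.046, adjusted p = 0.000325, edgeR). It fell by 0.19 after siIGF2BP2 as well (adjusted p = 0.000611, edgeR). HSPA5, the chaperone BiP, was at -0.05, XBP1 at -0.0035 and DNAJB9 at 0.06, none of them called. The median of the list was -0.0036.

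Of 30 tested genes of the integrated stress response, ERO1A, an oxidase of the endoplasmic reticulum, fell by 0.14 and no other was called; its call was lost without siIGF2BP3 replicate 2 or 3 or siControl replicate 1 or 4. None of 8 substrates of IRE1-dependent decay was called. None of 20 tested mRNAs reported as IGF2BP targets was called either, and they ranged from -0.13 (HK2, hexokinase 2) to 0.11 (ULBP2), with a median of 0.013. MYC was at 0.04, CD44 at 0.03 and HMGA2 at 0.03. After siIGF2BP2, 10 of these 20 were called lower, beside 18.4% of all genes tested.

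Of 33 tested genes of sterol and fatty acid synthesis, 5 fell and none rose. The list's median was -0.090, and 6 of the 33 values, called or not, were above 0, beside 5794 of 11428 over all genes tested. SREBF2, the transcription factor that drives sterol synthesis genes, was at 277, 276, 273 and 261 CPM with siControl and at 225, 227, 239 and 238 CPM with siIGF2BP3 (log2 difference -0.23, SE 0.035, adjusted p = 3.24e-06, edgeR). The groups did not overlap. SQLE, squalene epoxidase, was at -0.20, SCD, stearoyl-CoA desaturase, at -0.16, and INSIG1, which retains SREBP proteins in the endoplasmic reticulum, at -0.22, beside STARD4 at -0.70. The INSIG1 call was lost without siIGF2BP3 replicate 1 or siControl replicate 1 or 4.

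In this list Dox lowered 1 gene, IDI1, with a median of -0.035, and siIGF2BP2 raised 4 and lowered 13, with a median of -0.067. Of all genes tested, 1.01% were called lower with Dox, and 18.4% were called in each direction after siIGF2BP2. After siIGF2BP2, INSIG1 was at -1.11, SQLE at -0.38 and SREBF2 at -0.24, all called. STARD4 was at 0.03 and SCD at -0.05 there, neither called. SREBF2 differed between siIGF2BP3 and Dox (-0.22, adjusted p = 0.00778, edgeR), a difference that holds the siRNA effect by which the gene was chosen.

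Called changes in the cell cycle and p53 lists were small. Of 28 tested p53 targets, MDM2, the ligase that degrades p53, rose by 0.16, RPS27L rose by 0.23 and RRM2B fell by 0.19; 20 were above 0, with a median of 0.064. Dox raised 13 of these 28 (median 0.22), beside 1.64% of all genes tested. CDKN1A, the arrest gene p21, was at 0.0016 after siIGF2BP3. The MDM2 call was lost without any 1 library except siIGF2BP3 replicate 3, and the RRM2B call without any 1 of the 8.

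Of 36 genes of G1/S and DNA replication, the helicase subunits MCM5 (-0.24) and MCM3 (-0.17) and UHRF1, a factor of maintenance methylation (-0.15), fell, and RRM2 (0.12) and the transcription factor E2F1 (0.16, named after its value was seen) rose. The UHRF1 call was lost without siIGF2BP3 replicate 1 or 2 or siControl replicate 1 or 4, the E2F1 call without any 1 library except siIGF2BP3 replicate 1, and the RRM2 call without siIGF2BP3 replicate 2. None of 36 genes of G2/M and mitosis was called, and they ranged from -0.10 to 0.57. WEE1, which rose by 0.45, is not in that list. MCM5 was the clearest call within these lists, at 209, 214, 218 and 204 CPM with siControl and 174, 178, 185 and 178 CPM with siIGF2BP3.

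USP18 was the single call among 25 tested genes of interferon response and RNA sensing, whose median was 0.075. The sensors RIGI and IFIH1 and the effector ISG15 were at 0.07, 0.05 and 0.12, none called. Among 16 NF-kB targets and cytokines, IL11 fell from 13.1 ± 1.90 to 9.57 ± 1.30 CPM (SD, n = 4 each; log2 difference -0.47, SE 0.101, adjusted p = 0.00231, edgeR) and no other gene was called. Among 10 Wnt targets, SOX9, a transcription factor of intestinal crypts, was at 0.880, 0.910, 1.10 and 1.53 CPM with siControl and at 2.52, 2.11, 1.64 and 2.10 CPM with siIGF2BP3 (0.94, SE 0.271, adjusted p = 0.0438, edgeR). The SOX9 call was lost without siIGF2BP3 replicate 1, 2 or 4 or siControl replicate 1, 2 or 3. After siIGF2BP2, SOX9 fell by 1.78.

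Of 25 tested IGF2BP partner and stress-granule proteins, HNRNPU rose by 0.10 and SERBP1 by 0.12. The HNRNPU call was lost without siIGF2BP3 replicate 1, 2 or 3 or siControl replicate 1, 2 or 3, and that of SERBP1 without siIGF2BP3 replicate 1 or siControl replicate 2 or 3. Of 16 m6A writers, erasers and readers, RBM15B, an adaptor of the writer complex, rose by 0.19 (adjusted p = 0.000486, edgeR). Of 47 genes of mRNA decay, the exosome subunits EXOSC10 (-0.22) and EXOSC3 (-0.24) fell, the latter losing its call without any 1 library except siIGF2BP3 replicate 2 or siControl replicate 4. None of 13 genes of RNA interference was called, AGO2 being at 0.02 and DICER1 at -0.0045.

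Of 24 tested cytoskeleton and SRF/YAP target genes, CALD1 and CCN2, a matricellular protein, rose by 0.31 and 0.30. The CCN2 call was lost without siIGF2BP3 replicate 1 or siControl replicate 1, 2 or 3. CCN2 was also called higher after siIGF2BP2 (0.24), and was at -0.08 with Dox, not called. None of 18 integrin, laminin and collagen genes was called. Among the 13 mitochondrially encoded mRNAs, 10 were below 0 and MT-ND6, the mRNA transcribed from the light strand, rose from 124, 147, 138 and 165 CPM to 176, 182, 195 and 197 CPM (log2 difference 0.38, SE 0.091, adjusted p = 0.00808, edgeR). Its call was lost with DESeq2 and without siControl replicate 1. MT-ND6 was also called higher after siIGF2BP2 (0.25), and was at 0.28 with Dox, not called.

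**Figure D5:**
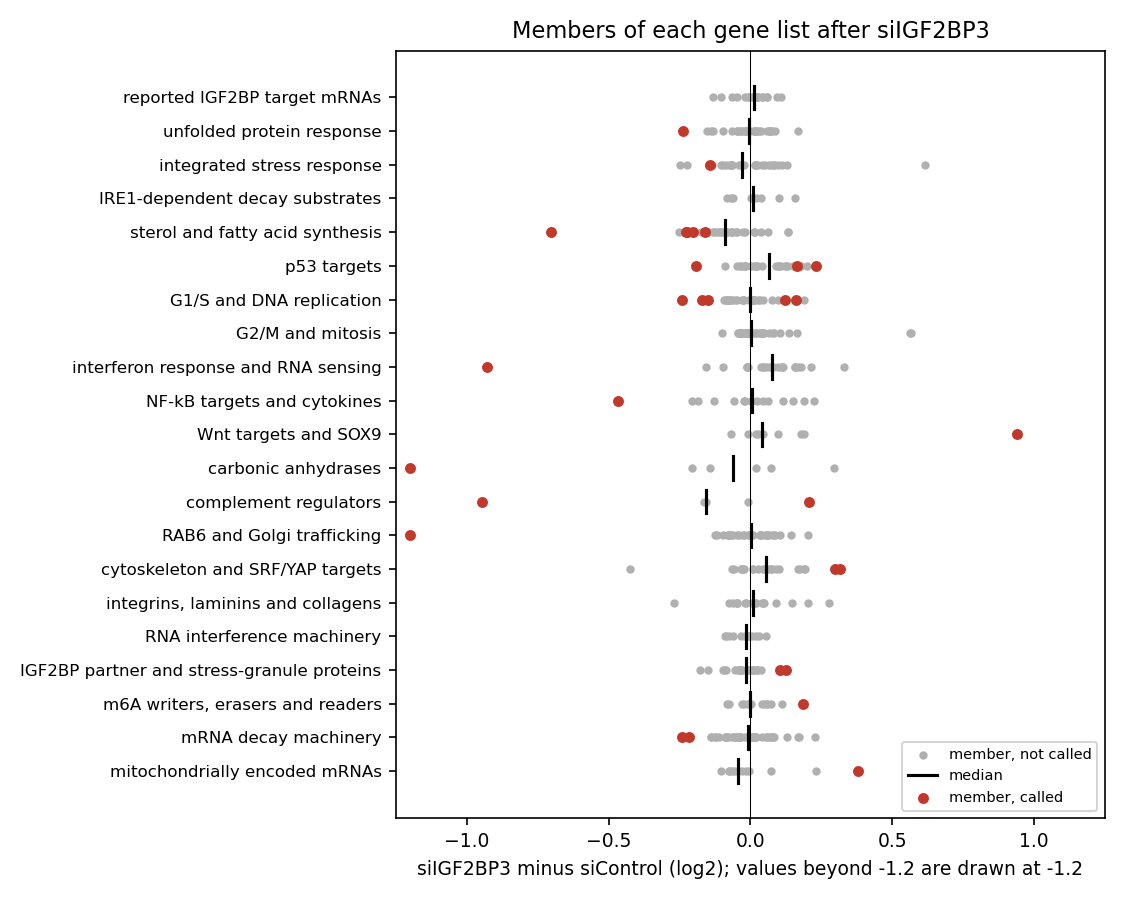
Log2 difference between siIGF2BP3 and siControl (x axis) for each tested member of 21 gene lists (rows). Grey points are members not called, red points members called, and black ticks the median of a list; the sterol and fatty acid list holds 5 called members, all below 0.

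Transcript features of the called genes are given as a description, with no test. The median annotated 3′ UTR of the genes that fell was 1644.5 bases, against 1206 bases for the genes that rose and 974.5 bases for all genes tested. Called lower were 0.916% of 3713 genes with a 3′ UTR under 500 bases, 1.10% of 3443 genes with 500 to 1500 bases, 1.68% of 2375 genes with 1500 to 3000 bases, and 2.55% of 1885 genes with 3000 bases or more. Called higher were 0.727%, 0.929%, 1.39% and 0.796% of the same classes. With Dox the share called lower was between 0.943% and 1.11% in all 4 classes. The median level of the classes was between 4.94 and 5.04 log2 CPM. The called genes themselves were more abundant, with a median of 6.29 log2 CPM for the falls and 5.85 for the rises, against 5.00 for all genes tested. Their median transcript lengths were 3557.5 and 3588 bases, against 3074 bases. The GC content of the transcripts had a median of 46.0% for the genes that fell, 52.7% for those that rose and 49.4% for all genes tested. Genes are not independent replicates, and the classes were not counted again with the GC and length offset.

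Several named genes share exon bases with a gene on the opposite strand, among them BRD3 (BRD3OS), PSKH1 (CTRL), TMEM198 (CHPF), UNC5A (HK3), EME1 (LRRC59), ZSWIM9 (CARD8), MDM2 (CPM), RBM15B (DCAF1) and HNRNPU (COX20). The libraries were made with a directional kit, but whether the counting used strand is not given in the sources used here, so reads of such partners cannot be told apart. ENTPD7 shares exon bases with CUTC on the same strand, as do CD59, RAB3IP and EXOSC3 with unnamed readthrough or overlapping genes.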

How the data were processed

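The authors deposited whole-number counts of reads per gene for 40 libraries, not normalized, in 1 table of 19962 genes. Poly(A) RNA was alkylated as in SLAMseq and sequenced as single reads of 100 bases, per the labels' protocols. The submitters' processing notes list bcl2fastq 2.20.0.422, STAR 2.7.5c and hg38; the counting tool and annotation are not given in the sources used here. Symbols and transcripts came from GENCODE release 29 (19847 identifiers matched).

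edgeR 4.0.16 (R 4.3.3) fitted all 40 libraries in 10 groups (filterByExpr, scaling by trimmed means of M-values or TMM, glmQLFit and glmQLFTest), with Benjamini-Hochberg adjustment over 11428 genes holding 99.98% of counts; standard errors are the log2 fold change over the root of F. The common biological coefficient of variation was 3.79%. An unadjusted p under 0.05 was found for 1578 genes after siIGF2BP3. On simulated counts of this comparison (11362 genes), 33 of 50 genes changed 1.2-fold were recovered, 48 of 50 at 1.5-fold, 46 of 49 at 2-fold and 50 of 50 at 4-fold, with 9 false calls. Over 12 replicate pairs, chi-square per gene was 1.68 to 3.58, above the 1 of sampling noise, so all libraries were kept as separate replicates.

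Genes were named by rule: the 12 largest rises and falls called with a mean of at least 2 log2 CPM and no overlap of groups, and up to 4 called members per list by smallest adjusted p. Also named were the 4 highest and lowest called in each difference between effects, with the same level and overlap limits. The 6 largest shared by siRNA and Dox were added. Members, lists and rules were chosen with earlier results of these data known. Alternatives were other normalizations, filters, tools (DESeq2 1.42.0, limma 3.58.1), libraries in the fit, a 1.2-fold test, a replicate block, a GC and length offset, and leaving out each library. Some genes are not reported here.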

Additional observations from a re-analysis of the deposited data

Results flagged for a closer look

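Among 144 groups of 4 libraries of the named genes, 4 held a library far from the other 3 (gap over range above the 95% critical value of Dixon for 4 samples), where chance flags about 1 in 20 groups. NECTIN3 was at 5.56 CPM in siIGF2BP3 replicate 1 and at 3.70 to 3.99 CPM in the others. EXOSC10 was at 98.7 CPM in siIGF2BP3 replicate 1 against 89.5 to 90.4 CPM. UBE2V2 was at 84.1 CPM in siControl replicate 4 against 77.3 to 78.1 CPM, and its call after siIGF2BP3 was lost without that library. RRM2B was at 51.0 CPM in siIGF2BP3 replicate 3 against 56.8 to 57.0 CPM.

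For 4 genes called in opposite directions after siRNA and with Dox, the difference between the effects is given (edgeR quasi-likelihood with Benjamini-Hochberg adjustment). The opposite effects chose these genes and make up the difference, so nothing more is read from its p-values. The siRNA effect minus the Dox effect was -0.76 on the log2 scale for IL11 (adjusted p = 0.000123), -0.63 for PIP5KL1 (adjusted p = 3.19e-06) and -0.61 for ITGAX (adjusted p = 4.04e-05). It was 0.25 for RRM2 (adjusted p = 7.52e-05). The siRNA call of ITGAX was lost without any 1 library except siIGF2BP3 replicate 3, that of PIP5KL1 without replicate 2 or 3 of either group, and that of RRM2 without siIGF2BP3 replicate 2. After siIGF2BP2, IL11, PIP5KL1 and ITGAX were lower by 0.98, 0.46 and 0.30, and RRM2 was higher by 0.27.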

How the results depend on the processing

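The count of 267 genes called after siIGF2BP3 was 465 when only its 8 libraries were fitted (all 267 among them), 478 with the GC and length offset and 16 against a change of at least 1.2-fold; it ranged from 179 to 222 when 1 library was left out. The 2137 differences from siIGF2BP2 became 273 in the 1.2-fold test and ranged from 1847 to 2098 without 1 library. The 155 differences from Dox became 284 with only those libraries, 252 with the offset and 18 in the 1.2-fold test, and ranged from 108 to 157 without 1 library. The cause was not tested. DESeq2 called 311 genes after siIGF2BP3 and limma-voom 257. Same-numbered siControl and siIGF2BP3 libraries did not deviate together (correlations of deviations -0.090 to 0.024 over 4 pairs), and 1 siIGF2BP3 library correlated best with its own number; with a replicate block 232 genes were called, and the differences from Dox were 35 higher and 88 lower. Of 64 named genes called after siIGF2BP3, 32 kept the call, the 1.2-fold test aside, in every alternative that could be read for them. Of all 64, 12 kept it in that test too, and none changed sign. For some low genes, among them USP18 and NECTIN3 of the 32, 16 alternatives could be read, against 17 for others such as CA2. Calls of named genes ended with limma-voom for UNC5A, LHFPL4, SOX9, MDM2, RRM2B, E2F1 and HEXIM1, with the replicate block for ITGAX, PAQR3, UBE2G1, HNRNPU, SPOCD1, UNC5A and LHFPL4 and for the ZNF704 difference from Dox, with upper-quartile scaling for ITGAX, RRM2B and UBE2G1, with no filter for ITGAX, HNRNPU and UNC5A, and with the offset for UNC5A, E2F1 and IER5L. Signs changed for 2 uncalled values near 0: MALSU1 was at 0.00585 with upper-quartile scaling and 0.000664 with the offset, and IGF2BP2 at 0.00655 with upper-quartile scaling. Without 1 library, MALSU1 ranged from -0.0354 to 0.0193 and IGF2BP2 from -0.0299 to 0.0188. At this depth and spread, changes near 1.2-fold were recovered only in part in simulated counts, so a gene without a call may have changed by that much.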
